A study of Caenorhabditis elegans with 18 samples.

Results

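Long introns, here those over 400 and up to 1000 bases, on the 5 autosomes of Caenorhabditis elegans were followed after depletion of the splicing factor MOG-7 from the germline. They were taken from the authors' table of intron intervals as those in this range of length whose host was a single gene of the protein-coding count table, and whose host had at least 2 intervals. Here "long introns" has this meaning throughout. This gave 10785 introns in 6184 host genes, which was 14.1% of the 76272 autosomal introns chosen without the length limit and 10.1% of all 106818 intervals. All libraries came from poly-A RNA of synchronised young adult hermaphrodites that had not yet formed embryos, carrying mog-7::degron::gfp together with the transgene sun-1p::TIR1::mRuby. The sun-1 promoter drives the plant F-box protein TIR1 in the germline, and auxin lets TIR1 direct the degron-tagged MOG-7 to degradation. Worms were exposed to auxin for 1 h, to auxin for 2 h, or to ethanol for 2 h as the control of both, and every one of the 6 batches (I, II, V, VII, VIII, X) supplied a library to all 3 groups, which makes 6 per group. Both auxin comparisons share the same ethanol libraries. Whole worms were sequenced, so each library mixes germline and somatic RNA. Auxin-treated worms lacking TIR1 or the degron are not analysed here, and auxin itself and MOG-7 loss cannot be told apart.

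Introns are cut out of the primary transcript by the spliceosome, a complex of small nuclear RNAs and proteins that recognises both splice sites and the branch point between them. In C. elegans most introns are very short, and much longer ones form a minority that can also carry regulatory elements and small RNA genes. In poly-A RNA an intron read comes from a transcript in which that intron has not been removed, or from another RNA that covers the interval. The mog genes take their name from masculinisation of the germline in their mutants, and several of them encode splicing proteins.

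The 10785 introns had a median length of 598 bases, with quartiles at 487 and 756 bases. Chromosome I held 2427 of them, II 1829, III 2151, IV 1854 and V 2524. In Ensembl release 115 (WBcel235), an annotated intron had the same start, end and strand in 10581 cases (98.1%), so coordinates are given on that build. Among those with a rank in the annotation, 1978 were the first intron of their transcripts, 7999 were later introns and 590 differed in rank between transcripts. Both a matching annotated intron and freedom from any annotated exon were found for 9922 (92.0%), which are called exon-free here. An exon of the host itself overlapped 238 introns, and an exon of another gene overlapped 549, among them 298 with non-coding RNA genes and 94 with piRNA genes. One host held a single such intron in 3666 cases, and the largest number was 16, in dys-1, the dystrophin gene.

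Reads on protein-coding genes ranged from 18153020 to 30747645 per library, and reads on all intron intervals from 186471 to 885408. The long introns held 21661 to 32438 reads per ethanol library, 56374 to 81878 after 1 h of auxin and 58853 to 82079 after 2 h. Their share of all intron reads was 11% to 11.6% with ethanol, 9.35% to 9.93% at 1 h and 9.14% to 9.61% at 2 h. Most single introns were thinly covered, with a median of 18 reads over all 18 libraries and no read at all in 1481 introns. In 8067 of them (74.8%) no ethanol library exceeded 3 counts, the floor below which only a bound on a fold is given. mog-7 mRNA itself was at 39.9 ± 1.73 CPM (counts per 1000000 gene reads, SD, n = 6) in ethanol libraries, 39.6 ± 2.82 CPM after 1 h and 42.1 ± 2.94 CPM after 2 h, and since the degron acts on the protein, these values do not check the depletion. As a check on whole worms, the mRNA of the germline list used here stood at 23455 CPM in ethanol libraries, that of the intestine list at 70265 CPM and that of the muscle list at 15619.9 CPM.

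Long intron reads rose relative to the mRNA of their own host genes within 1 h of auxin and rose further by 2 h. Summed over all 10785 introns, with no filter, reads per 1000 host gene reads ran from 5.06 to 5.18 with ethanol (median 5.17), from 10.9 to 12.8 at 1 h (median 12) and from 12.9 to 15.7 at 2 h (median 14). No library of one group overlapped the range of another. The means were 5.15 ± 0.046, 11.9 ± 0.846 and 14.1 ± 0.982 (SD, n = 6), giving ratios to ethanol of 2.31 at 1 h and 2.74 at 2 h and a ratio of 1.18 between the times. Within batches these ratios ranged from 2.13 to 2.53, from 2.52 to 3.03 and from 1.14 to 1.25, and each was above 1 in 6 of 6 batches. Each difference reached 0.00216, the smallest p that an exact two-sided permutation test of 6 against 6 libraries can give. The spread between ethanol libraries was far below that between auxin libraries, in which batches VII, VIII and I were the highest at both times.

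**Figure D1:**
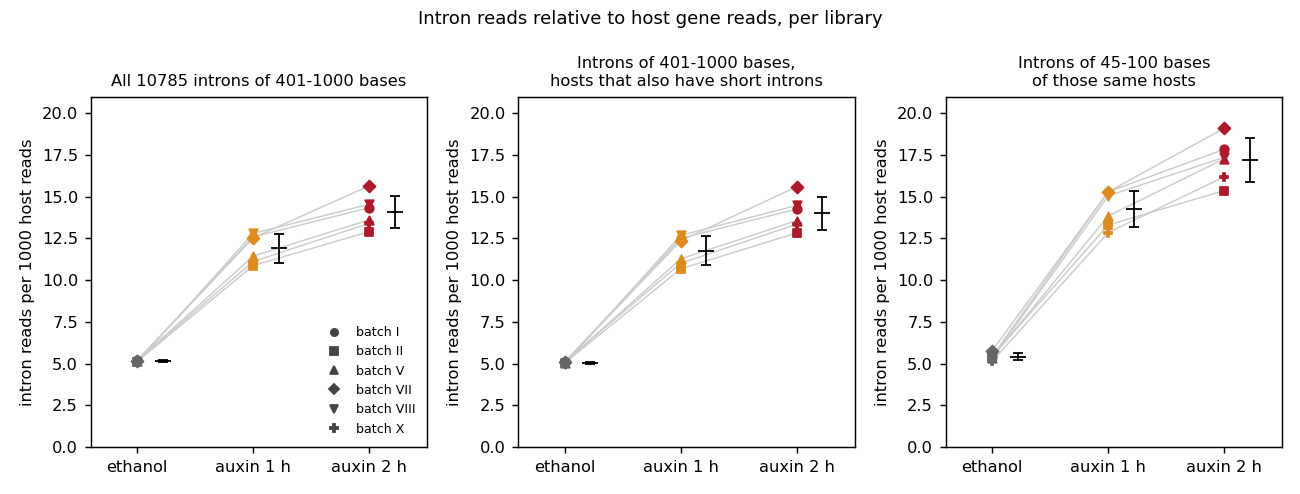
Intron reads per 1000 host gene reads in each library (vertical axis) by group, with marker shapes for batches, grey lines joining libraries of a batch, and black bars for mean ± SD (n = 6). The left panel shows all 10785 long introns, the middle panel those in hosts that also have introns of 45 to 100 bases, and the right panel those short introns, which rose from 5.40 to 17.2 while the longer ones in the same hosts rose from 5.05 to 14.

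The ratios differed between introns of weakly and strongly expressed hosts, which was described and not tested, and the host count that ranks the genes is also the denominator of these values. With hosts ranked by mean count into 5 groups of equal number, the introns in the lowest group, with under 5.56 counts per library, went from 109 to 135 reads per 1000 host reads, a 2 h ratio of 1.23 with overlapping libraries. The ratio was 1.29 in the next group, 1.63 in the middle group, 2.99 in the group between 377 and 1288 counts and 3.04 above that. The last 2 groups held 2407 and 2730 long introns, and their ethanol levels of 7.20 and 3.8 reads per 1000 host reads were the lowest of the 5. All length bins of 100 bases rose, with 2 h ratios of 2.71, 2.25, 2.92, 2.83, 3.30 and 2.98 from the shortest bin to the longest. Chromosome IV had the highest 2 h ratio, 3.36, and the lowest ethanol level, 3.47 reads per 1000 host reads. Chromosome V had the lowest ratio, 2.39, and chromosomes I, II and III lay at 2.65, 2.93 and 2.62.

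Compared with other lengths, long introns rose less than short introns and by more than the longest. At 2 h the ratio to ethanol was 6.01 for introns of 44 bases or less, 6.67 for 45 to 50 bases, 3.77 for 51 to 100 bases, 2.75 for over 100 to 400 bases and 2.30 for those over 1000 bases. The log2 ratio of the long class to the 45 to 50 class fell by 1.29 ± 0.0878 (SD over batches, n = 6), and to the 51 to 100 class it fell by 0.46 ± 0.0616, in 6 of 6 batches each. Against the class of 44 bases or less it fell by 1.14 ± 0.0599. Against introns over 1000 bases it rose by 0.25 ± 0.0511 (adjusted p = 0.00271 for each of these 4, exact two-sided permutation test adjusted over 5 classes). From the class of over 100 to 400 bases it differed by -0.005 ± 0.044, with 2 of 6 batches above 0 (adjusted p = 0.74). The ethanol levels also climbed with length, from 1.85 reads per 1000 host reads in the shortest class through 2.58, 3.50 and 4.96 to 5.15 in long introns and 10.8 above 1000. These sums were divided neither by intron length nor by the number of introns per host, so they do not compare retention per intron. The part of these starting levels and of differing host genes in the ratios of the classes was not tested by this comparison.

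**Figure D2:**
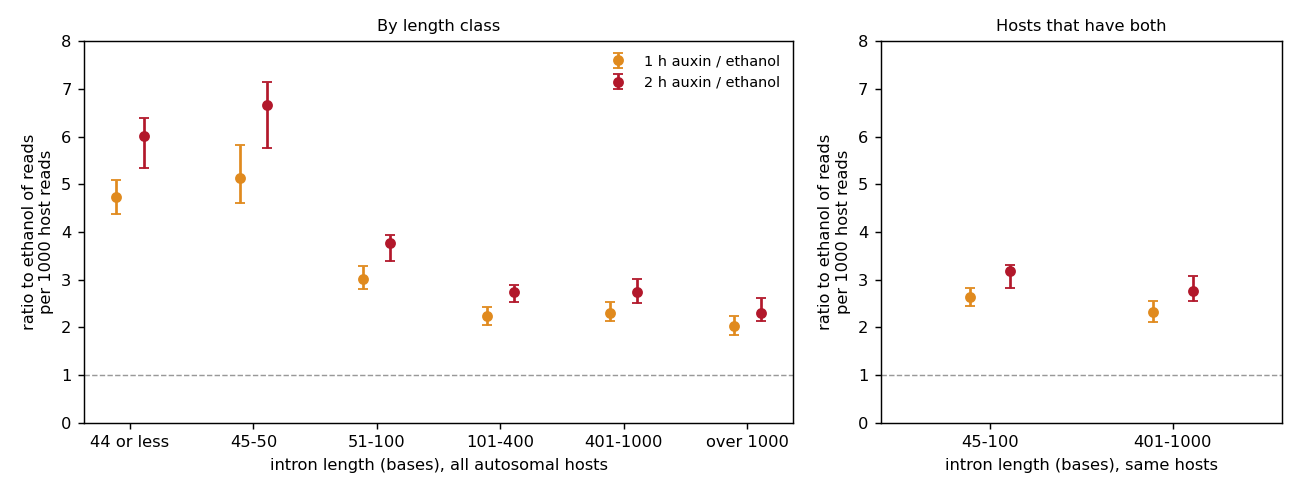
Ratio to ethanol of intron reads per 1000 host reads (vertical axis) at 1 h and 2 h of auxin, by length class over all autosomal hosts (left) and for hosts that hold both introns of 45 to 100 bases and long introns (right). Points are ratios of group means and bars the lowest and highest ratio within the 6 batches; at 2 h the left panel has 6.67 for 45 to 50 bases, 3.77 for 51 to 100 bases and 2.74 for long introns, and the right panel, where the short classes are joined, has 3.18 for short and 2.77 for long introns.

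Long and short introns of the same genes were then compared, with all introns of 45 to 100 bases as the short ones, so that the length class changed along with the hosts. In 5146 hosts with introns of both kinds, the 8899 long introns went from 5.05 ± 0.0536 reads per 1000 host reads to 11.7 ± 0.865 at 1 h and 14 ± 0.984 at 2 h. The 16061 introns of 45 to 100 bases in these hosts went from 5.40 ± 0.210 to 14.3 ± 1.08 and 17.2 ± 1.30. The ratios to ethanol were 2.33 and 2.77 for the long introns and 2.64 and 3.18 for the short ones. The fold change of long introns was 0.880 times that of short ones at 1 h and 0.871 times at 2 h (exact two-sided permutation test, p = 0.00216 each). Between 1 h and 2 h the factor was 0.990 (exact permutation test, p = 0.513). Counted per intron, the reads gained at 2 h were 1.01 reads per 1000000 host reads for a long intron and 0.734 for a short one, with no account taken of their different lengths.

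The direction of this small difference reversed when the introns best covered in ethanol were removed from the long introns alone. It held when the best covered introns were removed from both kinds. The 108 long introns (1%) with the most ethanol reads held 36.2% of all ethanol reads of this length class. They changed from 26.4 ± 0.649 to 30.6 ± 1.29 and 32.3 ± 1.10 reads per 1000 host reads, ratios of 1.16 and 1.22, while the other introns rose 2.96-fold and 3.58-fold. The ethanol reads that chose them also enter the denominator of these ratios, so part of this contrast follows from the choice. Without those 108 the ethanol level of the long introns was 3.43 instead of 5.15 reads per 1000 host reads over all hosts, and their fold change was 1.10 times that of short introns of the same hosts at 1 h and 1.12 times at 2 h. With the 1% best covered in ethanol removed from both kinds, the factors were 0.745 and 0.732. With the 1% with the most reads over all libraries removed from both kinds, they were 0.821 and 0.806. These ways of removal were all chosen after the data were seen. Against introns of over 100 and up to 400 bases in the same hosts the factors were 1.10 and 1.09. In 583 hosts with at least 20 ethanol reads on each kind, the median log2 change at 2 h was 0.97 for long and 1.08 for short introns, and long introns changed less than short ones in 322 of these hosts. Across those hosts the changes of long and short introns, which share the host count and the libraries, had a Pearson correlation of 0.65 and a Spearman correlation of 0.69.

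Length within the chosen range, rank in the transcript and overlap with exons went with differences in the rise, the length being also what the introns were chosen by. Long introns over 600 bases rose 3.00-fold at 2 h and those up to 600 bases 2.48-fold, a log2 difference of 0.27 ± 0.0306 in 6 of 6 batches. The first introns of transcripts rose 2.60-fold and later introns 2.86-fold, a log2 difference of -0.14 ± 0.0431 in 6 of 6 batches. Introns that overlapped an annotated exon rose 2.12-fold and exon-free introns 2.93-fold, a log2 difference of -0.47 ± 0.0503. All 3 differences, and the same 3 at 1 h, had an adjusted p of 0.00216 (exact two-sided permutation test, smallest p possible, adjusted over 6). Without the 108 introns best covered in ethanol they kept their signs, at 0.13, -0.37 and -0.28.

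Overlap with other transcribed features separated the introns further. The 238 introns that overlapped an exon of their own host stood at 13.7 ± 0.613 reads per 1000 host reads with ethanol and 18 ± 0.512 at 2 h, a ratio of 1.31. The 204 intervals that match no annotated intron had a ratio of 1.36. Introns with a piRNA gene inside them, a class of small RNA genes of the germline, were at 4.91 ± 0.780 with ethanol and 5.44 ± 0.806 at 2 h, with overlapping libraries. Those that overlapped other non-coding RNA genes rose from 2.04 ± 0.117 to 6.43 ± 0.651, a ratio of 3.16.

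Single introns were then tested relative to their host gene, with the host count of the same library as the offset in edgeR's quasi-likelihood test and Benjamini-Hochberg adjustment over 13947 introns of all lengths. Of the 10785 introns, 1669 in 1271 hosts passed the filter on low counts. Of the others, 1841 had a host that failed the filter and 7275 had too few intron reads. At 1 h 1341 of the 1669 rose (80.3%), against 84.2% of all 13947 introns tested. Those that fell were 13 of the 1669, against 80 of the 13947 (0.574%). At 2 h 1344 rose (80.5%), against 85.1%, and 12 fell, against 68 of all (0.488%). From 1 h to 2 h 429 rose (25.7%), against 36.4%, and 25 fell, against 113 of all (0.810%). The shares that rose were thus below those of all tested introns in each comparison, and the shares that fell were above them. Both were described and not tested. A total of 1309 introns in 964 hosts rose at both times, and 271 were called at neither. These counts were not made over introns of all lengths, so they do not set long introns apart.

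Many introns passed the filter through their auxin libraries alone, which bears on these shares. In 444 of the 1669, no ethanol library exceeded 3 counts. Among the other 1225, 900 rose and 12 fell at 2 h, and the median log2 change was 1.56 at 1 h and 1.87 at 2 h. The share over introns of all lengths above this floor was not taken, so these counts make no comparison with them. With the introns at the floor set to their lower bound, the medians over all 1669 were 1.90 and 2.25, against fitted medians of 2.26 and 2.63. When the filter was put on the host only, at a mean of 500 counts, 4724 introns of this length were tested. Of these, 2644 (56.0%) rose at 1 h, against 54.9% of all introns so tested, and 2742 (58.0%) rose at 2 h, against 57.3%. Those that fell numbered 16 (0.339%, against 0.408% of all) and 21 (0.445%, against 0.391%). With scaling to intron reads in place of host reads, the median change over all tested introns went from 3.45 to 0.94 on the log2 scale at 2 h, and introns that rose by less than this shift then changed sign.

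**Figure D3:**
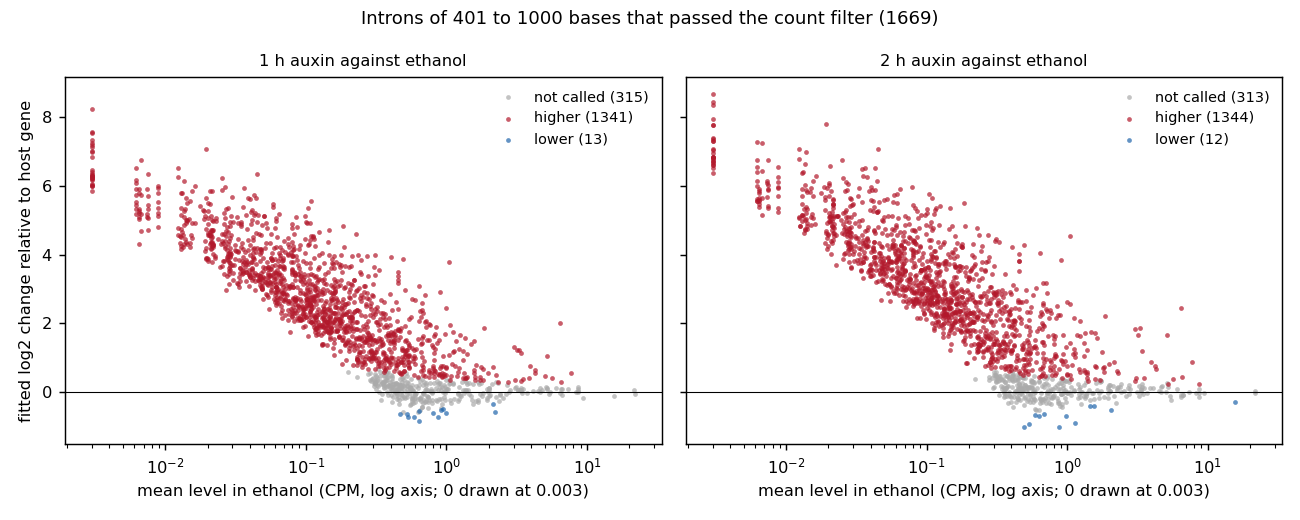
Fitted log2 change relative to the host gene (vertical axis) against the mean ethanol level in CPM, counts per 1000000 gene reads (log axis), for the 1669 tested long introns at 1 h (left) and 2 h (right). Red points rose (1341 and 1344), blue points fell (13 and 12) and grey points were not called; the empty lower left corner is where introns with low counts in all libraries were removed by the filter, and values at low ethanol levels are not estimates of size.

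The host mRNAs behaved much like other genes. Of 4776 host genes tested by edgeR, 164 (3.43%) rose and 341 (7.14%) fell at 1 h, against 3.62% and 6.93% of all 13969 genes tested. At 2 h 736 (15.4%) rose and 918 (19.2%) fell, against 14.5% and 20.1%. Between the times 154 (3.22%) rose and 152 (3.18%) fell, against 2.94% and 3.95% of all genes.

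Hosts with several tested introns mostly had all of them called upward at 2 h. Among 295 hosts with at least 2 tested introns of this length, all of them rose at 2 h in 252 hosts, none in 16, and only some in 27. Of all 1669 tested long introns 80.5% rose at 2 h, and agreement within hosts beyond that rate was not tested. The range of the fitted log2 change within a host had a median of 1.30, which includes fitted changes of introns at the ethanol floor and was not set against the error of the fit.

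The exon-free introns with the highest CPM at 2 h, among those that rose at both times, are described first. In ubq-1, the polyubiquitin gene, the first intron of 5 (564 bases, chromosome III from 5940422 to 5940985, plus strand) had 7.62 to 9.66 reads per 1000 host reads with ethanol (median 8.77), 28.9 to 40.8 at 1 h (median 34.0) and 45.3 to 52.5 at 2 h (median 46.4). The 3 groups were fully separate, and its log2 change was 2.01 at 1 h (SE 0.104, adjusted p = 1.85e-24) and 2.44 at 2 h (SE 0.105, adjusted p = 2.87e-28). The gene's 4 introns of 45 to 100 bases went from 2.71 to 37.2 reads per 1000 host reads at 2 h.

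A steeper rise was seen in mel-32, which encodes serine hydroxymethyltransferase, an enzyme of one-carbon metabolism. Its intron of 885 bases (the first in some of its transcripts, chromosome III from 6441868 to 6442752, minus strand) had 1.02 to 2.06 reads per 1000 host reads with ethanol (median 1.23), 13 to 24.4 at 1 h (median 18.2) and 29.4 to 38.6 at 2 h (median 30.7). The groups were separate at each step. The log2 change was 3.79 at 1 h (SE 0.151, adjusted p = 2.63e-29), 4.56 at 2 h (SE 0.152, adjusted p = 5.54e-33) and 0.77 between the times (adjusted p = 1.23e-06). The host mRNA rose by 0.24 on the log2 scale at 1 h (adjusted p = 0.000345) and was at 0.05 at 2 h (adjusted p = 0.301). In this gene the 3 short introns stayed below the long one in reads, going from 0.841 to 13.9 reads per 1000 host reads.

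Other abundant introns rose by smaller factors from higher starting levels. In pcn-1, the sliding clamp of DNA replication, the 474-base intron went from 8.0 ± 0.971 to 18.7 ± 1.45 and 29.5 ± 3.64 reads per 1000 host reads (log2 change 1.88 at 2 h, adjusted p = 4.31e-21), while its single short intron went from 0.508 to 19.6. In zipt-11, a member of the ZIP zinc transporter family, the 580-base intron went from 46.7 ± 4.99 to 148 ± 18.7 at 2 h (log2 change 1.66, adjusted p = 2.82e-18). In nemp-1, a nuclear envelope membrane protein, the 464-base intron went from 48.3 ± 3.78 to 65.4 ± 3.76 (log2 change 0.44, adjusted p = 0.000175), and its 1 h rise of 0.29 (adjusted p = 0.00968) was lost without batch VIII (adjusted p = 0.0663). The 5 short introns of nemp-1 went from 2.90 to 92.0 reads per 1000 host reads. When scaled to intron reads, the pcn-1, zipt-11 and nemp-1 introns all changed sign. W09C5.1 rose from 6.53 ± 2.59 to 97.5 ± 12.6 reads per 1000 host reads in its 909-base intron (log2 change 3.85, adjusted p = 1.97e-28).

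The largest fitted rises relative to the host, among exon-free introns with over 5 mean ethanol counts, are given next. In hsp-60, the mitochondrial chaperonin, the intron of 997 bases (the first in some of its transcripts, chromosome III from 1623437 to 1624433, plus strand) had 0.0904 to 0.752 reads per 1000 host reads with ethanol, 7.68 to 12.4 at 1 h and 8.82 to 13.3 at 2 h. The auxin libraries lay far above ethanol but the 2 auxin times overlapped, with a log2 change of 4.77 at 2 h (SE 0.223, adjusted p = 1.22e-26) and of 0.16 between the times (adjusted p = 0.363). In eif-3.I, a subunit of the translation initiation factor eIF3, the 970-base intron went from 1.52 ± 0.971 to 22.6 ± 2.65 and 34.3 ± 5.61 (log2 change 4.57 at 2 h, adjusted p = 3.5e-27). In mom-2, a Wnt ligand, the first intron of 428 bases went from 4.43 ± 2.66 to 67.4 ± 9.60 and 92.2 ± 8.43 (log2 change 4.46, adjusted p = 1.11e-27), and its 4 short introns went from 3.48 to 185. The 647-base intron of sygl-1, a regulator of germline stem cells downstream of the Notch receptor GLP-1, went from 4.41 ± 1.54 to 84.1 ± 17.7 (log2 change 4.24, adjusted p = 4.71e-26). In anat-1 the 466-base intron went from 2.92 ± 1.86 to 61.3 ± 7.07 (log2 change 4.40, adjusted p = 1.28e-26). The 692-base intron of pid-5, a protein of piRNA-directed silencing, went from 5.33 ± 1.21 to 102 ± 14 (log2 change 4.24, adjusted p = 1.09e-29).

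**Figure D4:**
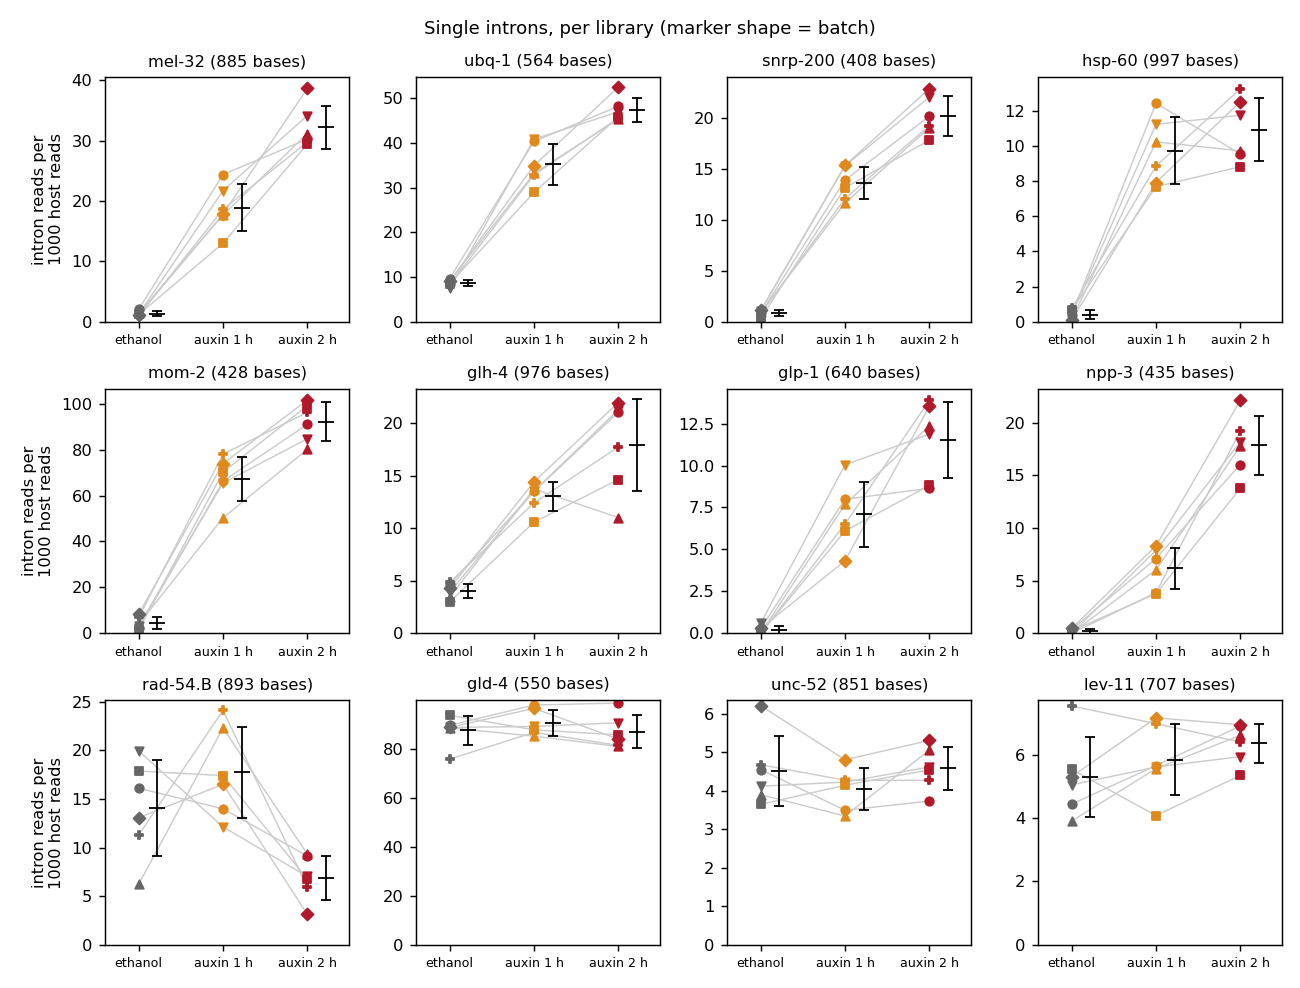
Reads per 1000 host reads (vertical axis, separate scale in each panel) in every library for 12 long introns, with marker shapes for batches as in the plot of summed reads, grey lines within batches and black bars for mean ± SD (n = 6). The top 2 rows show introns that rose at both times, such as mel-32 from 1.34 to 32.2; the bottom row shows rad-54.B, lower at 2 h at 6.90, and introns of gld-4, unc-52 and lev-11 that were not called.

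A small set of introns kept a high level in all groups. In gld-4, a cytoplasmic poly(A) polymerase of the germline, the last of 8 introns (550 bases, chromosome I from 9121191 to 9121740, plus strand) had 75.8 to 93.7 reads per 1000 host reads with ethanol, 85.2 to 97.9 at 1 h and 81.0 to 98.7 at 2 h. Libraries of the 3 groups overlapped, and the log2 change at 2 h was -0.01 (SE 0.094, adjusted p = 0.917). The 4 short introns of gld-4 went from 0.705 to 5.63 over the same time. In cand-1, a regulator of cullin ubiquitin ligases, the 670-base intron was at 34.3 ± 2.34 with ethanol and 34.0 ± 2.67 at 2 h (log2 change -0.01, SE 0.107, adjusted p = 0.927). The 583-base interval in idpp-15, at 344 ± 34.8 and 352 ± 19.7, and the interval in Y82E9BR.2, at 857 ± 51.5 and 859 ± 161, match no annotated intron and overlap exons of their own hosts. The Y82E9BR.2 mRNA itself fell by 1.33 on the log2 scale at 2 h (adjusted p = 3.48e-10), and its interval kept its proportion to it. Reads on the overlapping exons may count for both host and interval, so the steady values of these intervals need not describe intron retention.

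Few long introns fell relative to their hosts, and those that did had few reads. In smi-1 the 613-base intron went from 86.1 ± 11.6 to 46.3 ± 9.80 reads per 1000 host reads at 2 h, with separate groups and 10 to 33 counts per library (log2 change -0.91, SE 0.210, adjusted p = 8.86e-05). In rad-54.B, a paralog of a recombination ATPase, the 893-base intron was at 14.1 ± 4.96 with ethanol, went to 17.7 ± 4.66 at 1 h and stood at 6.90 ± 2.28 at 2 h. Its 2 h libraries overlapped those of ethanol but lay below all 1 h libraries, with log2 changes of -1.01 (adjusted p = 0.00349) and, between the times, -1.36 (adjusted p = 0.000576). In cutl-10, a cuticlin-like gene, 16 to 26 counts with ethanol became 5 to 7 at 2 h, and the intron fell by 1.03 on the log2 scale (adjusted p = 0.0014) relative to a host that itself fell by 0.75 (adjusted p = 0.00405). The introns in F56G4.6 (log2 change -0.92, adjusted p = 0.00914) and in rtel-1, an anti-recombination helicase (-0.71, adjusted p = 0.00453), also fell at 2 h. The drh-3 intron, in a gene for a Dicer-related helicase, fell by 0.70 on the log2 scale (adjusted p = 0.0278), a call that was lost without batch II, VIII or X (adjusted p up to 0.174). The short introns of drh-3 went from 0.787 to 29.5 reads per 1000 host reads, and those of rtel-1 from 7.04 to 25.4.

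Between 1 h and 2 h most called introns rose further. The steepest were in dcr-1, the Dicer ribonuclease, npp-3, a nuclear pore protein, nurf-1, a chromatin remodelling subunit, and cogc-8, a subunit of the Golgi COG complex. In npp-3 the 435-base intron had no more than 2 counts in any ethanol library and went from 3.77 to 8.32 reads per 1000 host reads at 1 h (median 6.57) to 13.8 to 22.1 at 2 h (median 18). The times did not overlap, and the log2 change between them was 1.53 (SE 0.165, adjusted p = 7.73e-10). The fitted changes of the other 3 introns between the times were 1.63, 1.52 and 1.5 on the log2 scale, given as a description, since they had at most 15 counts in any 1 h library and passed the filter largely through the 2 h libraries. All 4 had every ethanol library at or under 3 counts, and at 2 h they were at least 6.32-fold, 27.5-fold, 7.91-fold and 8.05-fold above a floor of 3 counts per ethanol library, in the order dcr-1, npp-3, nurf-1 and cogc-8. A few introns rose at 1 h and were lower again at 2 h. In gcn-1, a regulator of translation, the 646-base intron went from 0.208 ± 0.195 to 5.30 ± 1.42 and then 2.35 ± 0.995 reads per 1000 host reads (log2 change between the times -1.19, adjusted p = 0.000124). In lin-65, a chromatin factor, the 811-base intron went from 6.22 ± 2.28 to 16.9 ± 3.73 and 8.33 ± 3.23 (-0.98 between the times, adjusted p = 0.00507). In Y49E10.18 the intron changed by -1.0 between the times (adjusted p = 0.00141), and the mRNAs of lin-65 and Y49E10.18 rose over the same interval by 0.41 each on the log2 scale (adjusted p = 0.000203 and 0.00161). The 1 h rises of lin-65 and Y49E10.18, of 1.37 and 0.72, changed sign when scaled to intron reads.

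Hosts known for germline function had introns with strong rises. The germline list of 60 genes held 24 long introns in 11 hosts. Together they went from 1.78 ± 0.127 reads per 1000 host reads to 11 ± 1.14 at 1 h and 14.8 ± 1.88 at 2 h. The ratios to ethanol were 6.21 and 8.31 (adjusted p = 0.00577 each, exact two-sided permutation test adjusted over 8 lists and 3 comparisons). Both auxin groups were separate from ethanol, while the libraries of the 2 auxin times overlapped, at 9.28 to 12.4 and 11.9 to 17.1. All 12 that passed the filter, some of them only through their auxin libraries, rose at both times, against 84.2% and 85.1% of all tested introns. The mRNA of the 60 genes together was at 0.863 times its ethanol level at 2 h, and in whole-worm RNA fewer cells of a type and less RNA per cell cannot be told apart. The 63 introns of 45 to 100 bases in the same 11 hosts rose 23-fold and 29.9-fold. The log2 difference of long from short introns in these hosts was -1.90 ± 0.271 at 1 h and -1.87 ± 0.259 at 2 h, in 6 of 6 batches (adjusted p = 0.00866, exact two-sided permutation test over 4 lists and 2 times, chosen after the data were seen). Both differences rest on sums over the 11 hosts, among them glh-4, and the weight of single genes in them was not tested.

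Within the germline list the introns differed widely from one another. In glh-4, a Vasa-related helicase of P granules, the 976-base interval, which matches no annotated intron, went from 2.99 to 4.83 reads per 1000 host reads with ethanol (median 4.09) to 11 to 22 at 2 h (median 19.4). That is a log2 change of 2.16 (SE 0.171, adjusted p = 3.44e-17), while the gene's 8 short introns went from 4.88 to 243. In glp-1, the Notch receptor that maintains germline stem cells, the 640-base intron was at 0 to 2 counts in ethanol libraries and 26 to 47 at 2 h, at least 12.8-fold above the floor, and the pair of short introns went from 0.282 to 11.1 reads per 1000 host reads. In mex-3, an RNA-binding repressor, the 720-base intron went from 0.341 ± 0.261 to 8.97 ± 1.27 (log2 change 4.72, adjusted p = 2.56e-23). In mes-4, a histone methyltransferase that marks germline genes, the 430-base intron rose at least 12.7-fold above the floor. In gld-2, another poly(A) polymerase, the 524-base intron went from 1.10 ± 0.267 to 7.54 ± 1.43 (log2 change 2.79, adjusted p = 4.1e-16). In lin-41, a regulator of oocyte growth, the 404-base intron overlaps an exon of the host and went from 1.6 ± 0.381 to 6.54 ± 1.90 (log2 change 1.96, adjusted p = 4.88e-13). The glh-4 and lin-41 introns changed sign when scaled to intron reads.

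The chk-2 intron, named after its values were seen, shows how far the host can move beneath its intron. chk-2 encodes a kinase needed for meiotic chromosome pairing, and its 585-base intron had 0 to 1 counts per ethanol library, 19 to 30 at 1 h and 8 to 31 at 2 h. Its mRNA fell by 2.21 on the log2 scale at 1 h (adjusted p = 2.01e-11) and by 3.15 at 2 h (adjusted p = 1.51e-13). Relative to the remaining mRNA the intron was at 240 ± 74.0 and 378 ± 150 reads per 1000 host reads, while its own level was 0.974 CPM at 1 h and 0.825 CPM at 2 h. Its rise between the times relative to the host (log2 change 0.71, adjusted p = 0.0119) was lost without batch X (adjusted p = 0.129) and became -0.22 when scaled to gene reads.

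Genes of the splicing machinery also held long introns that rose. The spliceosome list had 52 introns of this length in 25 hosts, which went from 2.97 ± 0.361 to 22.2 ± 2.53 and 33.1 ± 2.26 reads per 1000 host reads, ratios of 7.47 and 11.1 (adjusted p = 0.00577 each). Of 32 that passed the filter, some only through their auxin libraries, 31 rose at 1 h and 30 at 2 h, against 84.2% and 85.1% of all tested introns. In the 20 hosts that also have short introns, long introns rose 15.1-fold at 2 h and short ones 13.1-fold, a log2 difference of 0.21 ± 0.145 in 6 of 6 batches (adjusted p = 0.0381). At 1 h the difference was 0.20 ± 0.208 in 4 of 6 batches (adjusted p = 0.0381, and 0.125 when signs were flipped exactly over batches, unadjusted). In snrp-200, the Brr2 helicase that unwinds U4 from U6 RNA, the 408-base intron (chromosome II from 12730242 to 12730649, minus strand) had 0.304 to 1.13 reads per 1000 host reads with ethanol, 11.6 to 15.3 at 1 h and 17.8 to 22.9 at 2 h. Its groups were separate at each step, with a log2 change of 4.57 at 2 h (SE 0.185, adjusted p = 2.14e-29), and the snrp-200 mRNA rose by 0.73 (adjusted p = 1.55e-09). In spk-1, a kinase of SR splicing proteins, the first intron went from 0.316 ± 0.110 to 9.13 ± 0.876 (log2 change 4.77, adjusted p = 6.71e-26), and in sftb-1, a subunit of U2 SF3B, the 404-base intron rose at least 9.98-fold above the floor. The teg-4 intron did not pass the filter, with 0 to 2 counts with ethanol, 4 to 11 at 1 h and 0 to 6 at 2 h.

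The introns of prp-21 and sfa-1, named after their values were seen, show the spread within a single spliceosome gene. prp-21 encodes a subunit of the U2 complex SF3A and has 5 tested introns of this length in a row, introns 4 to 8 of its 8. At 2 h they stood at 25.4 ± 6.14, 33.8 ± 1.96, 29.9 ± 4.83, 86.2 ± 5.45 and 31 ± 2.61 reads per 1000 host reads. With ethanol 4 of these 5 were at 0.0744, 1.31, 0.371 and 0.643, and the last at 7.36 ± 2.46. All 5 rose at both times, the last by 2.10 on the log2 scale (adjusted p = 1.78e-15) and intron 7, which a non-coding RNA gene overlaps on the opposite strand, at least 48.7-fold above the floor. Scaled to intron reads, the last one changed sign. In sfa-1, the branch point binding protein, introns of 898 and 706 bases went from 0.699 ± 0.645 to 7.05 ± 2.14 and from 1.63 ± 0.717 to 10.1 ± 2.36. The 445-base intron of sfa-1 was at 15.7 ± 2.67 with ethanol and 13.6 ± 2.47 at 2 h (log2 change -0.19, SE 0.186, adjusted p = 0.356).

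**Figure D5:**
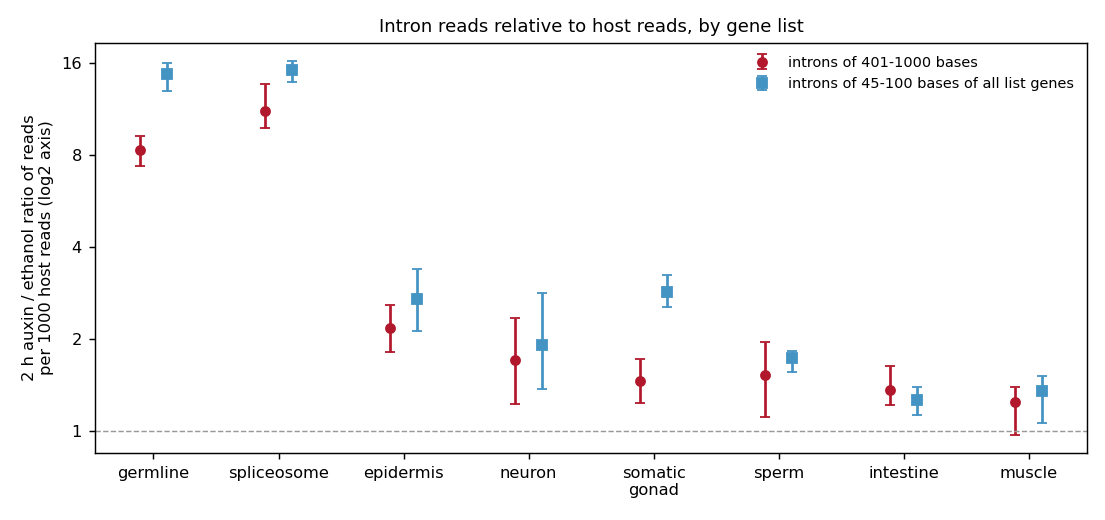
Ratio at 2 h to ethanol of intron reads per 1000 host reads (vertical axis, log2 scale) for long introns (red) and for all introns of 45 to 100 bases in genes of the same list (blue), with bars for the lowest and highest ratio within the 6 batches. The germline and spliceosome lists stand at 8.31 and 11.1 for the long introns, and the other 6 lists, the sperm list among them, between 1.25 and 2.17.

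Lists of somatic genes showed smaller ratios than the germline and spliceosome lists, a difference that was not tested. So did the sperm list, which is also one of germ cell genes, with a ratio of 1.52 at 2 h. At 2 h the mRNA of the muscle, intestine and somatic gonad lists was at 1.12, 1.11 and 1.11 times its ethanol level and that of the germline list at 0.863, and the part of these shifts in the intron values was not tested. The muscle list, with 83 introns in 20 hosts, went from 2.78 ± 0.194 to 3.19 ± 0.216 and 3.47 ± 0.368 reads per 1000 host reads, ratios of 1.15 and 1.25 in 5 of 6 batches (adjusted p = 0.013 each), a call that was lost at both times when signs were flipped exactly over batches (p = 0.0625, unadjusted). In unc-52, the basement membrane perlecan, the 851-base intron had 3.64 to 6.20 reads per 1000 host reads with ethanol and 3.73 to 5.30 at 2 h, with overlapping libraries (log2 change 0.03, SE 0.140, adjusted p = 0.838). In lev-11, the tropomyosin gene, the 707-base intron had 3.90 to 7.53 and 5.34 to 6.94 (log2 change 0.27, SE 0.132, adjusted p = 0.0517, and 0.0186 with batch as a block). In unc-54, the major body wall myosin, the 481-base intron did not pass the filter and was at 0.0886 ± 0.0404 with ethanol and 0.0892 ± 0.0382 at 2 h. Of the 10 tested muscle introns, 3 rose at 1 h and 4 at 2 h, against 84.2% and 85.1% of all tested introns, the latter 4 being both in pat-3, an integrin subunit, 1 in pat-6 and 1 in zyx-1. The zyx-1 rise of 0.60 on the log2 scale (adjusted p = 0.02) was lost without batch I or VII (adjusted p up to 0.0883).

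In the neuron list 64 introns in 21 hosts had ratios of 1.68 and 1.71 (adjusted p = 0.00799 each), with overlapping libraries. Of 3 tested, unc-57, the endophilin of synaptic vesicle recycling, rose from 1.89 ± 0.840 to 9.32 ± 2.99 and 7.89 ± 1.34 reads per 1000 host reads (log2 change 2.04 at 2 h, adjusted p = 5.25e-09). The unc-11 interval, in a clathrin adaptor gene, matches no annotated intron and rose from 1.43 ± 1.41 to 5.63 ± 3.41 (log2 change 1.93, adjusted p = 0.000141). The intron of eat-4, a glutamate transporter, was tested but not called (log2 change -0.08, adjusted p = 0.694). The goa-1 and unc-76 introns were not tested, at 0.363 ± 0.339 and 2.96 ± 1.32 with ethanol and 0.814 ± 0.178 and 5.41 ± 1.87 at 2 h. Scaled to intron reads, the unc-57, unc-11 and zyx-1 introns changed sign at 2 h.

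The epidermis list, with 27 introns, had ratios of 2.19 and 2.17 (adjusted p = 0.00577 each). Both auxin groups were separate from ethanol but overlapped each other. Its 5 tested introns included 3 in hmr-1, the cadherin of cell junctions, which all rose at both times. The somatic gonad list (18 introns) had ratios of 1.38 and 1.46, and the intestine list (13 introns) 1.41 and 1.36, with adjusted p of 0.00799 and 0.00577 for the former and 0.0111 and 0.0153 for the latter. The sperm list (9 introns) was at 1.08 at 1 h (adjusted p = 0.51) but had a ratio of 1.52 at 2 h (adjusted p = 0.00577). Several list genes, such as hmr-1, pat-3 and unc-57, may be expressed in more than one tissue, so a list does not assign its introns to a tissue. Against the short introns of the same hosts, long introns in muscle list hosts differed by -0.10 ± 0.130 at 1 h and -0.14 ± 0.153 at 2 h on the log2 scale (adjusted p = 0.0445 and 0.0381, and 0.125 and 0.0625, unadjusted, by exact sign flips of batches). In neuron list hosts the difference was -0.26 ± 0.212 (adjusted p = 0.0404, and 0.0625 by exact sign flips) and -0.22 ± 0.408 (adjusted p = 0.184).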

How the data were processed

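RNA counts from 18 libraries, 6 per group, were analysed. Libraries were stranded and poly-A selected, per the labels' protocols. The submitters' processing notes name Trimmomatic, cutadapt, STAR, SAMtools, Picard, featureCounts, limma and edgeR; versions, annotation, the genome build, the overlap rule and the strand setting for introns are not given in the sources used here. The authors deposited raw read counts per protein-coding gene and per intron interval, with interval lengths in bases. Columns of values without a sample numbered 0. If strand was not used for introns, reads of a gene on the opposite strand cannot be told apart from intron reads.

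Introns with 1 protein-coding host were tested in R 4.3.3 with edgeR 4.0.16 (quasi-likelihood, 1 model over 18 libraries, group as factor, offset log of host count + 0.5) after filterByExpr (minimum count 10) on hosts and introns. Gene counts were tested with TMM factors, after which 13969 of 20191 genes remained. P-values were adjusted by Benjamini-Hochberg over all features tested, with calls under 0.05. Standard errors are the log2 change divided by the root of F. Summed values per library were compared by exact two-sided permutation tests (924 divisions) and sign-flip tests over batches (64 arrangements, smallest p 0.0312), in Python 3.11.15 with NumPy 2.4.6, pandas 2.3.3 and SciPy 1.17.1; figures used matplotlib 3.10.9. In a simulation of the 2 h comparison on 13947 introns, 83% of introns raised 2-fold and 55% of those lowered 2-fold were called, with 5 false calls. Only a small part of the introns was changed in it, unlike in the data, and read rates were taken over all 18 libraries. These shares therefore do not measure the recovery or the error of the calls reported here.

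A count of 3 corresponds to 0.0985 to 0.164 CPM. The Wilson 95% half-width of the share of intron reads was 0.0604 to 0.145 percentage points; intervals and floors cover counting error only. The intron coefficient of biological variation was 0.138. Nothing in the labels says whether libraries of a group are separate cultures beyond their batch, so p-values measure the spread between batches. The labels name the batches, so they pair the libraries; deviations from group means correlated by 0.15 to 0.67 within batches across genes and by -0.02 to 0.17 across the introns studied. Reported values leave the batch out of the model.

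Introns were named by rule: highest CPM at 2 h, largest relative rise, lowest change, highest ethanol level without a call, largest change between times, and members of gene lists; exceptions are stated. The introns, lists and tests were chosen with earlier results of these data known. Splice-site and base composition features are not analysed here. Alternatives were DESeq2 1.42.0, other scalings and filters, the batch as a block and leaving out each batch.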

Additional observations from a re-analysis of the deposited data

Results flagged for a closer look

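Among 207 groups of 6 libraries examined, 13 (6.28%) held a library whose gap to its nearest neighbour exceeded Dixon's 95% critical value, and chance flags about 1 group in 20. All values are long intron reads (over 400 and up to 1000 bases) per 1000 host reads. The intestine list had a low library in batch X at 2 h, at 4.51 against 6.67 to 7.22 in the others.

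Among introns that rose, dcr-1 was high in batch V at 2 h (9.80 against 5.70 to 6.72), gcn-1 in batch X at 1 h (7.96 against 3.82 to 5.35), and mel-32 in batch I with ethanol (2.06 against 1.02 to 1.38). The pcn-1 intron was low in batch II at 2 h (22.5 against 29.1 to 32.3). With ethanol, mes-4 was at 1.12 in batch I, the only library with a read. The 781-base intron of prp-21 was at 0.446 in batch V and at 0 in the other ethanol libraries, and its 475-base intron was at 3.57 in batch VIII against 0.556 to 1.34.

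Among the remaining introns, drh-3 was high in batch V at 2 h (8.29 against 1.88 to 3.26), and gld-4 was low in batch X with ethanol (75.8 against 88.6 to 93.7). With ethanol, unc-54 was low in batch II (0.0135 against 0.0872 to 0.130). At 1 h unc-76 was high in batch I (10.5 against 3.12 to 4.90) and zyx-1 in batch II (4.33 against 1.74 to 2.62).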

How the results depend on the processing

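The ratios of summed reads kept their direction and their p under 0.05 under every alternative tried, between 2.27 and 2.96 at 1 h, 2.68 and 3.58 at 2 h and 1.14 and 1.21 between the times, including the replicate block (2.31, 2.73 and 1.18). The ratio between the fold changes of long and short introns of the same hosts, 0.880 at 1 h and 0.871 at 2 h, was 0.999 (exact permutation p = 0.978) and 1.00 (p = 0.874, a reversal in sign) without the 1% of long introns with the most reads. It was 1.10 (exact permutation p = 0.0108) and 1.12 (p = 0.00649) without the 1% with the most ethanol reads, added after seeing the data, and 1.10 and 1.09 against introns of over 100 and up to 400 bases (p = 0.00216). Among exon-free introns it was 0.969 (exact permutation p = 0.128) at 1 h and 0.955 (p = 0.0238) at 2 h. Removal from both long and short introns, also added after seeing the data, kept the direction. The ratio was then 0.821 and 0.806 without the 1% with the most reads (exact permutation p = 0.00216 each). Without the 1% with the most ethanol reads it was 0.745 and 0.732 (exact permutation p = 0.00216 each).

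Calls at 1 h, 2 h and between the times were 1347, 1351 and 453 upward and 16, 14 and 27 downward in the paired fit with batch as a replicate block. With intron library sizes 610, 611 and 71 of 1670 long introns were called upward, against 7789, 7967 and 1057 of all 15325. Downward calls were then 605, 620 and 122, against 4175, 4313 and 944 of all. With no filter on intron counts 2951 and 3153 of 8437 long introns rose at 1 h and 2 h, against 22164 and 24075 of all 67366. Those that fell were 31 and 36, against 264 and 258 of all. With the filter on hosts alone 2644 and 2742 of 4724 rose, against 19523 and 20350 of all 35533, and 21 fell at 2 h, against 139. DESeq2 with host counts gave 8 downward at 1 h. At 2 h 23 fell with DESeq2 size factors and 25 with gene library sizes, and with DESeq2 size factors 282 rose between the times. With a batch left out, upward calls ranged from 1310 to 1334, 1324 to 1341 and 310 to 394, and downward calls from 8 to 11, 9 to 13 and 16 to 24, with 8 at 1 h without batch II and 16 between the times without batch VIII. The cause of these differences was not tested, except that fewer libraries, another filter or another scaling enter by construction. Scaling to intron reads takes out a rise that most introns share. With it the median log2 change at 2 h was 0.105 over 1670 long introns, against 2.51 for the same introns with gene library sizes. Relative to host reads it was 2.63 over 1669.

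For the 52 named introns, 1745 of 1872 alternative values kept direction and call, 56 lost the call, 48 gained it and 23 reversed. With intron library sizes the log2 changes at 1 h and 2 h were -0.93 and -0.77 for pcn-1, -0.93 and -0.88 for zipt-11, -1.81 and -2.07 for nemp-1, -0.24 and -0.40 for glh-4, -1.21 and -0.89 for lin-41, -0.20 and -0.34 for unc-11 and -0.35 and -0.24 for the 428-base intron of prp-21. They were -1.63 for Y49E10.18 and -0.89 for lin-65 at 1 h, and -1.63 for zyx-1, -0.40 for unc-57 and -0.018 for the 706-base intron of sfa-1 at 2 h. Between the times glh-4 was at -0.16. The chk-2 intron was at -0.55 between the times with intron library sizes, -0.22 with gene library sizes and -0.24 with DESeq2 size factors. Depth limits single introns, since 7275 of 10785 had too few reads for the filter used.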
